A study of Homo sapiens with 12 samples.

Results

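IER3, FOSL2, KLF10, NR4A1, RGS2 and SGK1 are 6 genes that cells switch on within minutes to hours of a growth signal or a stress, and they were followed here across 5 drugs in 1 lung cancer cell line. They were chosen with earlier results of these data known, and were matched by symbol in the annotation of the array. The 6 genes are measured by 7 of the array's 8170 probes, 2 of them for FOSL2. After probes of a gene were averaged, the 6 genes are 6 of 7739 features. The study hybridised 12 arrays with 2 channels, 1 for RNA of H460 cells (a large-cell lung carcinoma line) exposed to a drug for 24 h and 1 for RNA of untreated H460 cells. Cells received 1 µM 5-fluorouracil (5-FU), 5 µM cisplatin, 0.2 µM of either cytarabine or cytochalasin D, or 5 nM paclitaxel, so doses differ and each drug was given at a single dose and time. As background, 5-FU and cytarabine are pyrimidine antimetabolites, cisplatin cross-links DNA, paclitaxel stabilises microtubules and cytochalasin D blocks the growth of actin filaments.

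Immediate early genes are transcribed from factors already present in the cell, without new protein synthesis, and many encode transcription factors or signalling brakes that shape the later response. Their RNAs usually peak early and decay fast, so a difference at 24 h is a late or lasting one. FOSL2 encodes a Fos family subunit of the transcription factor AP-1, KLF10 a Krüppel-like repressor induced early by TGF-beta, and NR4A1 the orphan nuclear receptor also called Nur77. IER3 encodes a regulator of survival under stress, RGS2 a protein that speeds the shut-off of Gq-type G proteins, and SGK1 a kinase induced by serum and glucocorticoids.

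Every value below is a log2 ratio of drug over untreated, centred on the median of its array. A positive value means more RNA per unit of total RNA in drug-treated cells, and more cells with the RNA cannot be told apart from more RNA per cell. The ratios carry no absolute level, so the 6 genes are not ranked against each other by abundance. The numerator of the deposited ratio is not stated. The direction used here is the likely one, set by MDM2, the p53 ubiquitin ligase, which read 1.17 to 1.80 on the 4 5-FU arrays, and by CDKN1A, a cell-cycle inhibitor induced by p53, which read 2.44 and 2.59 on the 2 5-FU arrays that measured it. The 5-FU arrays form 2 replicates, each hybridised in both orientations. The other drugs have 2 arrays each, all with the treated RNA in channel 1. The 5-FU arrays held 4357 to 6411 probe values and the others 6989 to 7644. KRT8, a keratin of epithelial cells, had values on all 12 arrays and PTPRC, a marker of blood cells, on 1. Neither separate cultures nor separate untreated RNA for the replicates is stated in the labels, so p-values measure the spread between arrays, which may be technical.

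The RefSeq promoter table of build GRCh38.p14 holds windows for FOSL2, NR4A1, RGS2 and SGK1 that were searched, each 250 bases before to 50 bases after a start site. The windows of RGS2 (chr1:192808789-192809088, plus strand) and FOSL2 (chr2:28392608-28392907, plus strand) are shown because both genes rose in cisplatin and both hold letters of the cyclic AMP response element, a sequence through which early genes are commonly induced. Capitals mark that half-site (TGACG on either strand) and, in FOSL2, the AP-1 site (TGANTCA, which reads nearly the same on both strands).
RGS2: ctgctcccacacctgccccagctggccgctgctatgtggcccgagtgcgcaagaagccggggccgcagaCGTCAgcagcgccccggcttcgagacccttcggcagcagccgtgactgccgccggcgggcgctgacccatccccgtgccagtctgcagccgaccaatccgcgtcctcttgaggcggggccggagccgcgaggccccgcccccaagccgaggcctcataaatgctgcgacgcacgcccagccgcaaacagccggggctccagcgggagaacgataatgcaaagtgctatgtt
FOSL2: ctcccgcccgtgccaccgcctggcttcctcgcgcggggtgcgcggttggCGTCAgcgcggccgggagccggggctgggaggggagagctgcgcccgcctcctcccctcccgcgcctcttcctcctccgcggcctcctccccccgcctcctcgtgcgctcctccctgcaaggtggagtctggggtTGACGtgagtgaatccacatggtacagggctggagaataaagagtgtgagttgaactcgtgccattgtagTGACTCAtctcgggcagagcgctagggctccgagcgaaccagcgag
RGS2 holds 1 half-site, at -181 from the start. FOSL2 holds 2, at -201 and -66, and its AP-1 site begins at position 5 after the start. Over 35114 promoter windows of the same length, 24.6% hold the half-site and 7.71% the AP-1 site. Neither set of letters was found in the 3 windows of SGK1 or the 2 of NR4A1, a gene also called higher in cisplatin. The p53 half-site and the CArG box, also searched, had no match in any window of these genes, beside 6.63% and 1.29% of all windows. Whether any motif bears on the ratios in cisplatin was not tested. A match is a description of the sequence and not a site shown to be used in these cells.

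Cisplatin was the drug with the highest median ratio over these genes. FOSL2, KLF10, NR4A1, RGS2 and IER3 rose relative to untreated cells, and SGK1 did not pass the test. These are 5 of 6 genes called higher at an adjusted p under 0.05, where 10.8% of all 4883 features tested were called higher and 20.4% in either direction. Because the 6 genes were chosen with earlier results of these data known, such shares, here and below, only describe them and are no independent test. The median fitted ratio of the 6 was 1.33, against 0.01 over all features. Fitted ratios are given as estimate ± SE from limma's moderated test over 10 replicates, 2 per drug, with p-values adjusted by the Benjamini-Hochberg method over all features tested. For cytarabine, cisplatin, paclitaxel and cytochalasin D the fit subtracts a channel effect, measured as 0.5 times the difference between the orientations of the 5-FU arrays, so a fitted ratio can differ from the mean of the arrays.

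**Figure D1:**
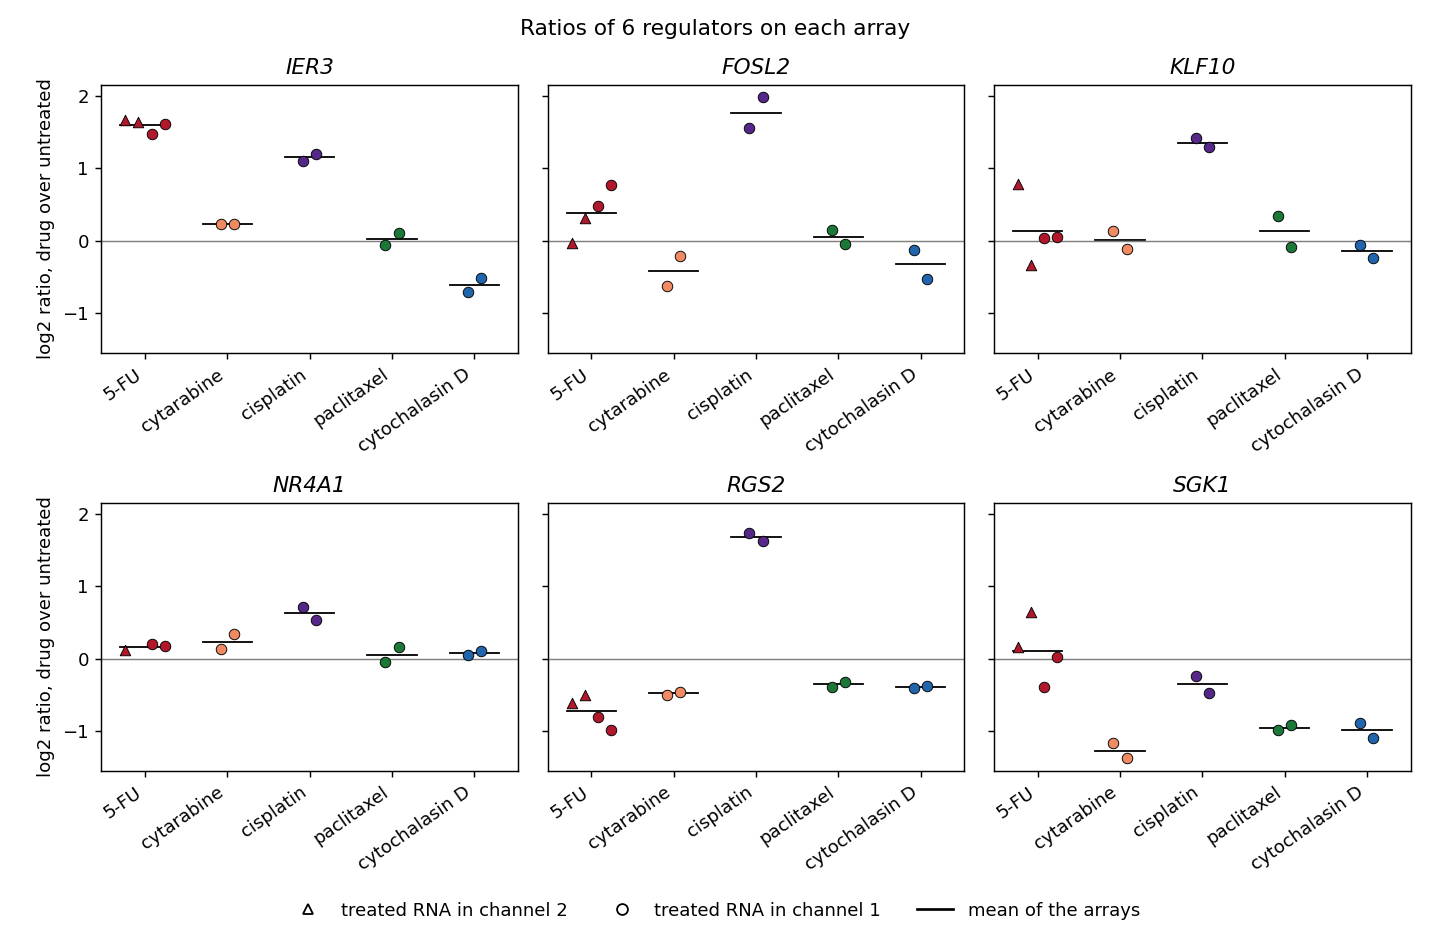
Log2 ratio of drug over untreated for each gene on each array, in panels by gene. Triangles are arrays with the treated RNA in channel 2, circles arrays with it in channel 1, and bars the mean of the arrays of a drug. Both cisplatin arrays lie above every other array for FOSL2, KLF10, NR4A1 and RGS2, the 4 5-FU arrays lie highest for IER3, and the cytarabine, paclitaxel and cytochalasin D arrays lie lowest for SGK1.

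FOSL2 read 1.55 and 1.99 on the cisplatin arrays. It read -0.03, 0.31, 0.48 and 0.77 in 5-FU, -0.62 and -0.21 in cytarabine, 0.15 and -0.05 in paclitaxel, and -0.13 and -0.52 in cytochalasin D. Both cisplatin arrays were above the other 10. Among those, 5-FU overlapped paclitaxel, and cytarabine overlapped cytochalasin D. The fitted ratio in cisplatin was 1.53 ± 0.18 (2.88-fold, adjusted p = 0.00152), rank 20 from the highest of 4883. In cytarabine FOSL2 fell, by -0.66 ± 0.18 (adjusted p = 0.0332). That call was lost without 5-FU replicate 1 (adjusted p = 0.0641), 5-FU replicate 2 (0.0664) or cytarabine replicate 1 (0.192), and with no channel term (0.0783). In 5-FU the fitted ratio was 0.38 ± 0.15 (adjusted p = 0.158) and in cytochalasin D -0.57 ± 0.18 (adjusted p = 0.0775), neither past the threshold.

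The 2 FOSL2 probes differed in size and in which arrays measured them. Probe 779175 read 1.35 and 1.58 in cisplatin, 0.05 and 0.18 in cytarabine, 0.15 and 0.00 in paclitaxel, and -0.13 and -0.22 in cytochalasin D, with no value in 5-FU. Probe 2372178 read 1.76 and 2.39 in cisplatin and -1.29 and -0.60 in cytarabine, and gave every 5-FU value. Both probes were thus high in cisplatin, but their cytarabine values lay on opposite sides of 0. Cisplatin exceeded cytarabine by 1.35 on the first probe (adjusted p = 0.00175) and by 3.02 on the second (adjusted p = 0.00378). Against paclitaxel and cytochalasin D the first probe alone gave 1.39 (adjusted p = 0.00219) and 1.64 (adjusted p = 0.000986). The fall of FOSL2 in cytarabine rests on probe 2372178, where it was -1.19 (adjusted p = 0.0219), and so does the channel effect of the gene.

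**Figure D2:**
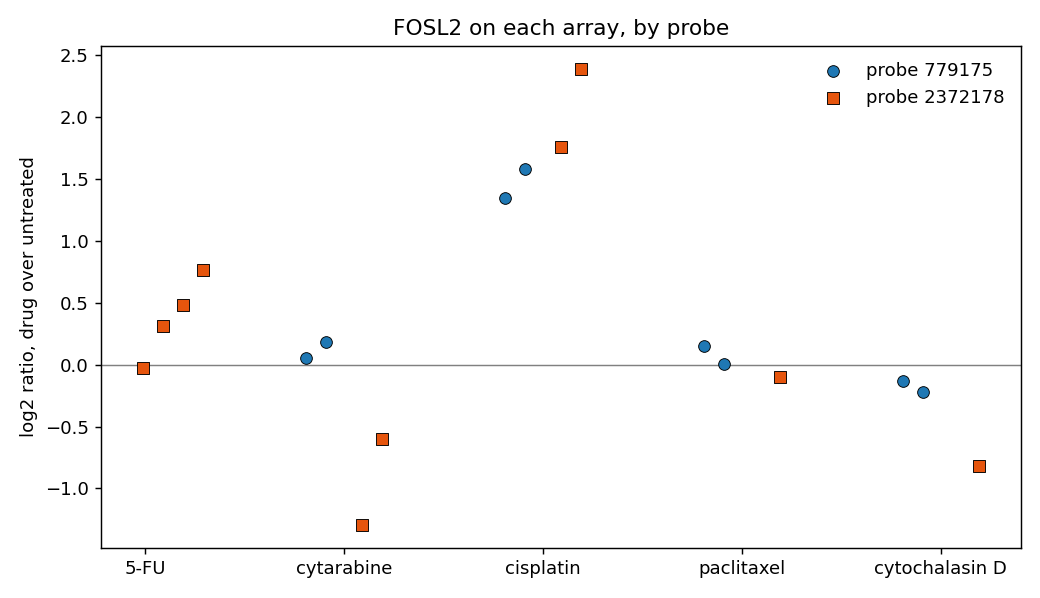
Log2 ratio of drug over untreated on each array for the 2 FOSL2 probes, by drug. Blue circles (probe 779175) and orange squares (probe 2372178) are both higher in cisplatin than in any other drug. In cytarabine they separate, at 0.05 and 0.18 against -1.29 and -0.60.

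KLF10 read 1.42 and 1.30 on the cisplatin arrays. It read 0.79, -0.34, 0.04 and 0.06 in 5-FU, 0.13 and -0.11 in cytarabine, 0.34 and -0.08 in paclitaxel, and -0.06 and -0.23 in cytochalasin D. The cisplatin arrays lay above all others, and the 5-FU arrays spanned the widest range, on both sides of 0. The fitted ratio in cisplatin was 1.44 ± 0.18 (2.72-fold, adjusted p = 0.00164, rank 22). In the other 4 drugs the fitted ratios were 0.14 in 5-FU, 0.10 in cytarabine, 0.22 in paclitaxel and -0.06 in cytochalasin D, with adjusted p between 0.451 and 0.86.

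NR4A1 moved least of those that rose in cisplatin. It read 0.71 and 0.54 in cisplatin, 0.11, 0.20 and 0.18 on 3 5-FU arrays, 0.14 and 0.33 in cytarabine, -0.05 and 0.16 in paclitaxel, and 0.05 and 0.11 in cytochalasin D. The cisplatin arrays were again the highest, by a smaller gap. The fitted ratio was 0.58 ± 0.11 (1.50-fold, adjusted p = 0.014, rank 198). Without cisplatin replicate 1 it was 0.50 and the call was lost (adjusted p = 0.0783). In 5-FU the gene was not tested, since 1 orientation of replicate 2 gave no value.

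IER3 was the one gene of the 5 tested in 5-FU that rose there, although FOSL2 also passed when every array was its own observation (adjusted p = 0.0318). It read 1.67, 1.64, 1.48 and 1.61 on the 4 5-FU arrays, 1.11 and 1.20 in cisplatin, 0.24 and 0.23 in cytarabine, -0.06 and 0.11 in paclitaxel, and -0.71 and -0.52 in cytochalasin D. No arrays of different drugs overlapped on this gene, and its order from high to low was 5-FU, cisplatin, cytarabine, paclitaxel and cytochalasin D. The fitted ratio in 5-FU was 1.60 ± 0.07 (3.03-fold, adjusted p = 9.1e-06), the 4th highest of 3829 features. In cisplatin it was 1.21 ± 0.08 (2.31-fold, adjusted p = 0.00014, rank 32). IER3 fell in cytochalasin D, at -0.56 ± 0.08 (adjusted p = 0.00528), the only drug in which its ratio was called lower. The rise in cytarabine was small, 0.29 ± 0.08 (adjusted p = 0.034), and it was lost without either cytarabine replicate (adjusted p = 0.121 and 0.126) or either 5-FU replicate (0.104 and 0.0561).

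RGS2 moved in opposite directions in cisplatin and 5-FU. It read 1.74 and 1.62 in cisplatin, -0.61, -0.50, -0.80 and -0.99 in 5-FU, -0.50 and -0.46 in cytarabine, -0.39 and -0.32 in paclitaxel, and -0.40 and -0.37 in cytochalasin D. It was above 0 on the 2 cisplatin arrays and below 0 on the other 10. The fitted ratio in cisplatin was 1.85 ± 0.06 (3.60-fold, adjusted p = 8.76e-06), rank 11 of 4883. In 5-FU it was -0.72 ± 0.05 (0.605-fold, adjusted p = 6.96e-05). In cytarabine RGS2 fell by -0.31 ± 0.06 (adjusted p = 0.0114). This call was lost without cytarabine replicate 1 (adjusted p = 0.0601), cytarabine replicate 2 (0.05) or 5-FU replicate 1 (0.0611).

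In paclitaxel and cytochalasin D the RGS2 call turned on the channel effect, which was -0.17 for this gene on the 5-FU arrays. With it the fitted ratios were -0.18 in paclitaxel (adjusted p = 0.107) and -0.22 in cytochalasin D (adjusted p = 0.0564). Without it they were -0.35 (adjusted p = 0.00563) and -0.39 (adjusted p = 0.00342).

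SGK1 was the one gene of the 6 that did not rise in any drug. It read -1.17 and -1.38 in cytarabine, -0.99 and -0.92 in paclitaxel, -0.89 and -1.09 in cytochalasin D, -0.24 and -0.47 in cisplatin, and 0.17, 0.64, -0.39 and 0.02 in 5-FU. The cytarabine arrays were the lowest, paclitaxel and cytochalasin D overlapped, and the cisplatin arrays overlapped those of 5-FU. The fitted ratio was -0.98 ± 0.14 in cytarabine (0.507-fold, adjusted p = 0.0026), -0.66 ± 0.14 in paclitaxel (adjusted p = 0.0238) and -0.70 ± 0.14 in cytochalasin D (adjusted p = 0.017). In cisplatin it was -0.06 (adjusted p = 0.768) and in 5-FU 0.11 (adjusted p = 0.639).

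The SGK1 falls in paclitaxel and cytochalasin D each needed both of the drug's replicates. Without paclitaxel replicate 1 or 2 the adjusted p was 0.133 or 0.0868, and without cytochalasin D replicate 1 or 2 it was 0.0611 or 0.113. The channel effect of SGK1 was -0.29, larger in size than the 90th percentile of 0.286 over 5123 features, and similar in both 5-FU pairs (-0.28 and -0.31). With no channel term the fitted ratios were further below 0, at -1.27 in cytarabine, -0.95 in paclitaxel and -0.99 in cytochalasin D. In cisplatin it was then -0.36 (adjusted p = 0.0712, 95% interval -0.62 to -0.09).

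**Figure D3:**
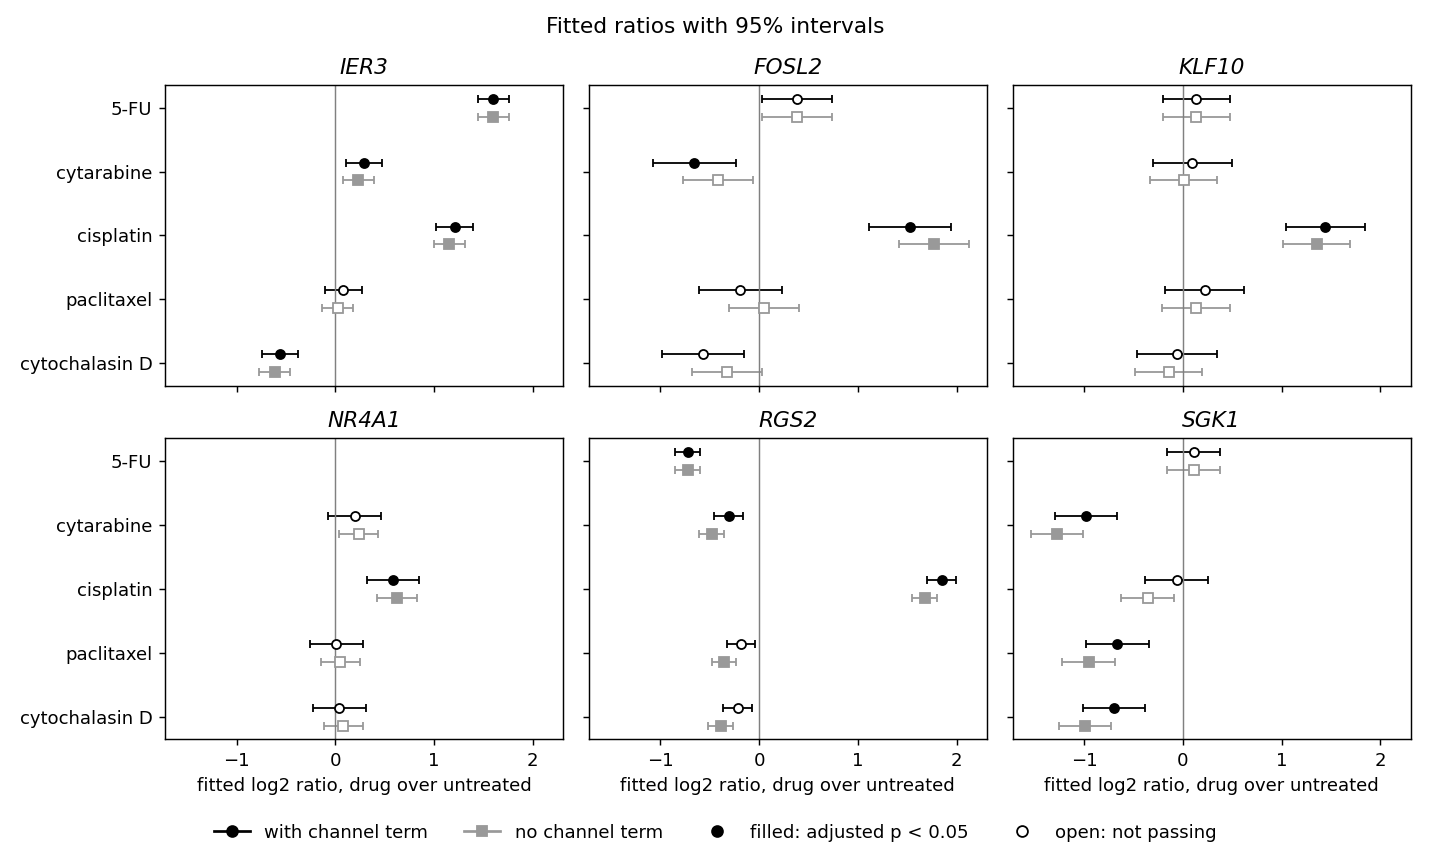
Fitted log2 ratio of drug over untreated with 95% intervals, by gene (panels) and drug (rows). Black circles are fits with the channel term, grey squares fits without it, and filled symbols passed an adjusted p under 0.05. For RGS2 in paclitaxel and cytochalasin D and for FOSL2 in cytarabine the 2 fits fall on different sides of the threshold.

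Outside cisplatin, the share of the 6 genes called is read against a background of the same test. In 5-FU 2 of 5 tested genes were called (IER3 higher, RGS2 lower), where 15.6% of all features were. In cytarabine 4 of 6 were called (IER3 higher and FOSL2, RGS2 and SGK1 lower), where 25.2% were, but with no channel term 3 were called (28.6% of features). In paclitaxel 1 was called (SGK1 lower), where 9.26% were, and with no channel term 2 (10.9% of features). In cytochalasin D 2 were called (IER3 and SGK1 lower), where 13.4% were, and with no channel term 3 (12.6% of features). The median fitted ratio of the genes tested was 0.14 in 5-FU, -0.10 in cytarabine, -0.09 in paclitaxel and -0.39 in cytochalasin D, and that of all features lay between 0.01 and 0.04. With no channel term the medians were -0.20 in cytarabine, 0.04 in paclitaxel and -0.36 in cytochalasin D.

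The drugs were then compared with each other, at the single dose of each. Of 56 differences that could be tested over 10 pairs of drugs, 31 passed, while between 0% and 22.1% of all features passed in a single pair. The pairs reuse the same 10 replicates, so the differences are not independent of each other. Cisplatin separated from cytarabine, paclitaxel and cytochalasin D on 5 of 6 genes each. It was higher than cytarabine for IER3, FOSL2, KLF10, RGS2 and SGK1, where 13.2% of features were called higher. It was higher than paclitaxel and than cytochalasin D for IER3, FOSL2, KLF10, NR4A1 and RGS2, where 4.09% and 5.22% were. The channel effect cancels in these pairs, which share an orientation.

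With the FOSL2 probes averaged, RGS2 and FOSL2 differed most between cisplatin and these 3 drugs. The RGS2 cisplatin ratio exceeded the cytarabine ratio by 2.16 ± 0.08 (adjusted p = 3.28e-05), the paclitaxel ratio by 2.03 ± 0.08 (adjusted p = 5.36e-05) and the cytochalasin D ratio by 2.07 ± 0.08 (adjusted p = 4.75e-05). For FOSL2 the differences were 2.18, 1.72 and 2.09, and for KLF10 1.35, 1.22 and 1.50. The FOSL2 values mix probes, since replicate 1 of paclitaxel and of cytochalasin D held probe 779175 only. On that probe alone, measured on every array of these drugs and cisplatin, the differences were 1.35, 1.39 and 1.64. Those are near the KLF10 values, and IER3 differed more from cytochalasin D, by 1.77. The KLF10 difference from paclitaxel was lost without cisplatin replicate 1 (adjusted p = 0.0951), cisplatin replicate 2 (0.0741) or paclitaxel replicate 2 (0.0824). The NR4A1 differences from paclitaxel (0.57, adjusted p = 0.0426) and cytochalasin D (0.54, adjusted p = 0.0423) were close to the threshold. Leaving out any 1 cisplatin, paclitaxel, cytarabine or cytochalasin D replicate ended the NR4A1 call against paclitaxel, with adjusted p of 0.0501 to 0.169, and either cisplatin or cytochalasin D replicate ended that against cytochalasin D, with 0.0826 to 0.179. The SGK1 difference between cisplatin and cytarabine was 0.92 (adjusted p = 0.00947), and 0.80 without cisplatin replicate 1 (adjusted p = 0.0564).

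MDM2 and CDKN1A, which set the direction through the 5-FU arrays, read 2.75 and 2.57 and 3.13 and 4.20 in cisplatin before centring. In cytarabine, paclitaxel and cytochalasin D, CDKN1A read 0.13 to 0.25 and MDM2 was below 0. 5-FU and cisplatin differed on 4 of the 5 genes tested, where 15.8% of features did. The 5-FU ratio of RGS2 was lower than the cisplatin ratio by -2.57 ± 0.08 (adjusted p = 3.64e-06). It was lower by -1.31 ± 0.23 for KLF10 (adjusted p = 0.00631) and by -1.14 ± 0.23 for FOSL2 (adjusted p = 0.0133). The FOSL2 call was lost without 5-FU replicate 1 (adjusted p = 0.073) or cisplatin replicate 2 (0.0709), and on probe 2372178, the one measured in both drugs, the difference was -1.45 (adjusted p = 0.0349). IER3 was higher in 5-FU than in cisplatin by 0.39 ± 0.10 (adjusted p = 0.0382), a call lost without either 5-FU replicate (0.0742 and 0.201), either cisplatin replicate (0.148 and 0.0762) or either cytarabine replicate (0.0549). For SGK1 the difference was 0.17, with a 95% interval of -0.24 to 0.58.

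5-FU also differed from cytarabine on 4 of 5 genes (20.1% of features), from paclitaxel on 3 of 5 (12.4%) and from cytochalasin D on 4 of 5 (12.1%), which counts FOSL2 although its values there come from different probes. IER3 was higher in 5-FU than in cytarabine by 1.31, than in paclitaxel by 1.52 and than in cytochalasin D by 2.16. SGK1 was higher in 5-FU than in the same 3 drugs by 1.09, 0.77 and 0.81, and RGS2 lower by -0.42, -0.54 and -0.51. The FOSL2 difference from cytarabine was 1.04 over both probes and 1.57 on probe 2372178 (adjusted p = 0.0227), the one measured in both drugs. Against cytochalasin D it was 0.95, with no probe measured in both replicates of both drugs, so it also holds the difference between the probes. With no channel term, the RGS2 difference from cytarabine was -0.25 (adjusted p = 0.0531) and the FOSL2 difference from cytochalasin D 0.71 (adjusted p = 0.0806). Without 5-FU replicate 2 the adjusted p was above the threshold for SGK1 against paclitaxel (0.0933) and cytochalasin D (0.0775), for RGS2 against cytarabine (0.0915) and cytochalasin D (0.0547), and for FOSL2 against cytarabine (0.0926) and cytochalasin D (0.158). FOSL2 against cytarabine was also lost without cytarabine replicate 1 (0.0713). Against cytochalasin D it was lost without 5-FU replicate 1 (0.0626), cytochalasin D replicate 2 (0.149) or either paclitaxel replicate (0.0501). SGK1 against paclitaxel was lost without paclitaxel replicate 1 (0.102) or 2 (0.0716), and against cytochalasin D without cytochalasin D replicate 2 (0.102).

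Few differences between cytarabine, paclitaxel and cytochalasin D passed, on these genes as over all features. Cytarabine minus paclitaxel gave 0 calls among the 6 genes by limma, at an unadjusted p under 0.05 too, and 0 among 6558 features (0%), of which 1153 had an unadjusted p under 0.05. Paclitaxel minus cytochalasin D gave 0 of 6 (0.204% of features), with IER3 at an unadjusted p of 0.000204. Cytarabine minus cytochalasin D gave 1 of 6, IER3 at 0.85 (adjusted p = 0.0149), where 3.2% of features were called. It was lost without cytarabine replicate 2 (adjusted p = 0.0647) or cytochalasin D replicate 1 (0.0863) or 2 (0.0721). The intervals still allow differences of some size: for SGK1, cytarabine minus paclitaxel lay between -0.70 and 0.06 and paclitaxel minus cytochalasin D between -0.34 and 0.41. For RGS2 these were -0.30 to 0.05 and -0.14 to 0.21.

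**Figure D4:**
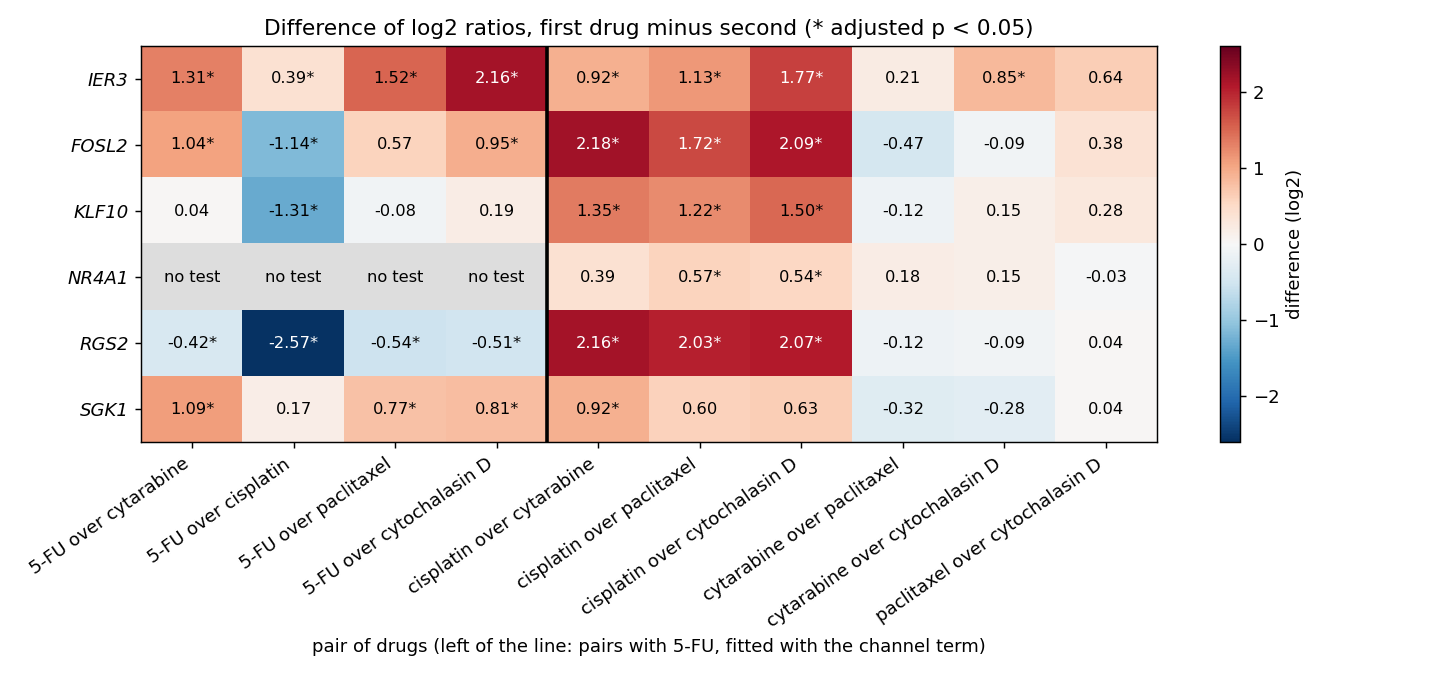
Difference of log2 ratios for each gene (rows) and pair of drugs (columns), first drug minus second, with red for higher and blue for lower in the first drug. An asterisk marks an adjusted p under 0.05, grey cells had no test, and pairs left of the line include 5-FU. The 3 columns with cisplatin as the first drug are red for all 6 genes, and the 3 rightmost columns hold 1 asterisk, for IER3.

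Genes of the same pathways were counted from lists that include the 6 genes themselves. Of 12 AP-1 subunits, 4 were on the array and 3 were tested in each drug. FOSL2 was the one called higher in cisplatin, where JUNB, a Jun family partner, had a fitted ratio of 0.03. BATF, an AP-1 subunit of immune cells, passed in cytarabine at 0.59, but not with no channel term (0.32, adjusted p = 0.0704). A list of 30 other immediate early transcription factors also holds IER3, which is not one. Of these 30 genes 10 could be tested in cisplatin. There 3 were called higher (NR4A1, KLF10 and IER3, all among the 6 genes) and 1 lower (PER1). Of all features 10.8% were called higher and 9.6% lower. With no channel term 15 were tested, with 5 called higher, the same 3 with EGR1 and SRF, and 4 lower, PER1 with CEBPB (-0.55), ID1 (-0.38) and KLF4 (-0.30), where 18.2% of features were called either way. In cytarabine 4 of 10 were called higher and 1 lower (25.2% of features either way), or 2 and 1 of 13 with no channel term (28.6%). Paclitaxel had 2 higher and 0 lower of 10 (9.26%), or 0 and 0 of 15 (10.9%). Cytochalasin D had 0 higher and 3 lower of 10 (13.4%), or 0 and 2 of 14 (12.6%). In 5-FU 2 of 8 were called higher and 0 lower (15.6%). PER1, a circadian repressor that glucocorticoids induce, fell in cisplatin by -0.70, or -0.36 with no channel term, and in cytarabine by -1.21, or -0.88. In cytochalasin D it passed only with the channel term, at -0.63. EGR1, a classical immediate early zinc-finger factor, was looked at after its values were seen. It had no 5-FU value and read 0.72 and 0.88 in cisplatin, and its ratio with no channel term was 0.80 (adjusted p = 0.000932).

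CEBPB, a leucine zipper factor of acute-phase responses, rose in cytarabine (0.86, and 0.50 with no channel term). In paclitaxel CEBPB (0.64) and ID1, an inhibitor of helix-loop-helix factors (0.39), passed only with the channel term. ID1 rose in 5-FU by 0.61 (adjusted p = 0.00119), and MYC, a growth-promoting transcription factor, fell in cytochalasin D by -0.37 (adjusted p = 0.038).

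Among 18 early phosphatases and RNA decay factors, 7 were tested. DUSP6, the phosphatase that switches off ERK, was called lower in all 5 drugs, at -0.37 in 5-FU, -1.28 in cytarabine, -0.72 in cisplatin, -1.17 in paclitaxel and -1.04 in cytochalasin D, and it was also called in all 5 with no channel term. DUSP4 and DUSP5, phosphatases of the same family, rose in cytarabine by 0.61 and 0.60. TOB1, an antiproliferative factor that promotes RNA decay, rose in 5-FU by 1.09 (adjusted p = 0.00075). Of the 7, 1 was called higher and 2 lower in 5-FU, 3 higher and 1 lower in cytarabine, 2 higher and 1 lower in cisplatin, and 0 higher and 1 lower in paclitaxel and in cytochalasin D. With no channel term 2 were higher in cytarabine and 1 in cisplatin, with the other counts as before. These 1 to 4 calls among 7 genes stand beside the shares of all features given above, 9.26% to 25.2%.

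RGS2 was the one RGS family member called higher in cisplatin among those tested. RGS9, RGS12, RGS13, RGS14 and RGS16 had no test there with the channel term. Of 28 RGS and G protein genes, 9 were tested in cisplatin. RGS2 and GNAI1, an inhibitory G protein subunit (0.25), were called higher and RGS3 and GNA15 lower, beside 10.8% and 9.6% of all features. GNA15, a subunit of the Gq class, was called lower in cisplatin (-0.82), cytarabine (-1.32), paclitaxel (-1.63) and cytochalasin D (-0.85). In 5-FU GNA15 was at 0.05 (adjusted p = 0.909), and GNAS, the stimulatory subunit, fell by -0.52. RGS20 passed in cytarabine (-0.37), paclitaxel (-0.36) and cytochalasin D (-0.42) only with the channel term, and without it lay between -0.09 and -0.03.

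The list of SGK family and glucocorticoid-induced genes held no gene called higher in any drug, except FOXO3, a transcription factor that SGK1 phosphorylates, in cisplatin when the channel term was left out (0.47, adjusted p = 0.00558). In cytarabine 4 of 7 tested were called lower, with a list median of -0.33 against 0.04 for all features, of which 25.2% were called either way. With no channel term 5 of 11 were called lower, with a median of -0.21 against 0.005, beside 28.6% of features. The 4 called lower with the channel term were SGK1, PER1, ZBTB16, a zinc-finger factor induced by glucocorticoids (-0.33), and TSC22D3, the leucine zipper protein GILZ (-0.29). TSC22D3 did not pass there with no channel term (-0.21, adjusted p = 0.0548). In 5-FU, where SGK1 did not pass, TSC22D3 (-0.47) and MT1X, a metal-binding protein (-0.55), fell.

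Among 16 KLF and TGF-beta early genes, 7 were tested in cisplatin, with 2 called higher and 1 lower, beside 10.8% and 9.6% of all features. KLF10 and TSC22D1, a leucine zipper factor induced by TGF-beta (0.69), rose there, while the receptor TGFBR2 (-0.86) fell. Of the 5 to 7 tested in each other drug, 0 were called higher and 1 to 3 lower, beside 9.26% to 25.2% of features called either way. With no channel term 3 of 12 were called higher and 1 lower in cisplatin (18.2% of features either way). Those called lower were then 6 of 11 in cytarabine (28.6%), 2 of 11 in paclitaxel (10.9%) and 1 of 11 in cytochalasin D (12.6%), with 0 higher. TGFBR2 also fell in cytarabine (-1.31), paclitaxel (-1.36) and cytochalasin D (-1.12). TSC22D1 fell in 5-FU (-0.39), cytarabine (-0.41) and paclitaxel (-0.44). TGFBI, an extracellular matrix protein, fell in 5-FU by -0.61, and SMAD2, a transducer of TGF-beta signals, fell in cytarabine by -0.53. Of 16 stress sensors, 5 were tested in each drug. Each drug had 1 called higher, and cytarabine also 1 lower, beside 9.26% to 25.2% of features called either way. With no channel term 7 were tested in each drug other than 5-FU. Then 0 were called higher and 2 lower in cytarabine (28.6% of features either way), and 1 and 1 in cisplatin (18.2%). Paclitaxel (10.9%) and cytochalasin D (12.6%) each had 1 higher and 0 lower. HMOX1, the heme-degrading enzyme of oxidative stress, rose by 2.45 in 5-FU (adjusted p = 3.87e-06) and by 0.74 in cytochalasin D, or 0.42 with no channel term. In cytarabine, cisplatin and paclitaxel it passed only with the channel term, at 0.49, 0.38 and 0.50, against 0.17, 0.06 and 0.18 without it. PIM1, a survival kinase, fell in cytarabine by -0.39.

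Over the 10 replicates the 6 genes did not share 1 pattern. Pearson's r was 0.91 between KLF10 and RGS2, 0.88 between FOSL2 and KLF10 and 0.86 between FOSL2 and RGS2, pairs that are alike in their cisplatin values. It was 0.83 between IER3 and SGK1, 0.29 between IER3 and RGS2 and 0.21 between RGS2 and SGK1. NR4A1, with 9 replicates, had r of 0.88 with RGS2. These coefficients describe points that come in 2 replicates of each drug.

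The genes with the most similar patterns, over at least 8 replicates, mostly had no 5-FU values. RGS2 was closest to ZNF443 (r = 0.992), SESN1, a p53-induced stress protein (r = 0.989), and MAGEA9 (r = 0.988), each over 8 replicates. SESN1 read 1.79 and 2.06 in cisplatin. FOSL2 was closest to BAG5, a chaperone partner (r = 0.986, n = 8), XPC, a DNA damage sensor (r = 0.983, n = 9), and MAGEA4 (r = 0.979, n = 8). XPC read 1.39 and 1.76 in cisplatin. KLF10 was closest to MAGEA9 (r = 0.976), PTGIR, a prostacyclin receptor (r = 0.975), and ASCC3, a helicase (r = 0.975), each over 8 replicates. NR4A1 was closest to ZNF282 (r = 0.955), SLC38A7 (r = 0.952) and ELL2, an elongation factor (r = 0.952), each over 9. IER3 was closest to VRK1, a nuclear kinase (r = 0.985), WDR43 (r = 0.975) and IL6ST, the shared receptor subunit gp130 (r = 0.965), each over 8. SGK1 was closest to KPNA1, a nuclear import adaptor (r = 0.992, n = 9), LIMS1 (r = 0.979, n = 8) and DHRS12 (r = 0.975, n = 8).

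A repeat over the 2452 genes with values in all 10 replicates, chosen after seeing the data, gave other neighbours. RGS2 was closest to TXNIP, an inhibitor of thioredoxin (r = 0.979), which read 1.93 and 2.16 in cisplatin and 0.04 and 0.00 in 5-FU, where RGS2 was below 0 on all 4 arrays. SMARCE1 (r = 0.961) and STK17A, a kinase (r = 0.955), came next. FOSL2 was closest to PPM1D, a p53-induced phosphatase (r = 0.976), which read 1.71 and 1.62 in cisplatin and 0.24 in both 5-FU replicates, then to MBTPS1, a protease, and the cytokine IL6 (both r = 0.963). IER3 was closest to ALDH3A1, an aldehyde dehydrogenase (r = 0.925), which read 0.59 and 1.03 in 5-FU and 0.86 and 1.07 in cisplatin, then to CAMKV (r = 0.923) and PHB1 (r = 0.917). KLF10 was closest to PPP1R3C, a glycogen-targeting phosphatase subunit (r = 0.964), STK17A (r = 0.941) and PIP5K1A (r = 0.938). SGK1 was closest to DDX52, an RNA helicase (r = 0.969), DUSP6 (r = 0.954) and PON1 (r = 0.953).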

How the data were processed

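Treated and untreated H460 RNA shared each of 12 two-channel arrays, which were grouped by drug. Per probe, the authors deposited a log ratio between the channels, read here as log2. Its log base, normalization and spot filter were not given in the sources used here. A natural logarithm would change sizes and folds but no direction or call. Intensities were not analysed here, so how far a spot lay above background is unknown. The number of arrays limits precision.

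Ratios were turned to drug over untreated and centred on each array's median. Of 8170 probes, 5930 match 1 gene, 79 several and 2161 none. A 5-FU replicate is the mean of its forward and reversed array, taken as 1 sample of RNA. For the other drugs, and for pairs with 5-FU, the channel effect entered as 1 observation from the 5-FU pairs, with weight 2 per pair. Its error is assumed, so those SEs may be too small. Each ratio was tested against 0, which leaves out the spread among untreated cultures. The tests used limma 3.58.1 (R 4.3.3), with both replicates of each drug compared required. Exact least squares by pattern of missing values, moderated by limma's squeezeVar, replaced lmFit and eBayes, since contrasts are approximate where values are missing. The fit was tested on simulated data. Genes were called at a Benjamini-Hochberg adjusted p under 0.05.

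The 6 genes and the 7 pathway lists were chosen with earlier results of these data known. Named from each list were up to 4 genes with the largest absolute fitted ratio among those called in any drug. EGR1, FOXO3, JUNB, KLF4, RGS3 and SRF fall outside this rule and were chosen after their values were seen. For each of the 6 genes the 3 most similar genes are given. Replicate numbers were not used to pair samples across drugs, except in the replicate block run as an alternative. Alternatives changed the channel term, the unit of replication, centring, scaling, missing values, probes, moderation, the replicate block and the replicates used.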

Additional observations from a re-analysis of the deposited data

How the results depend on the processing

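Of 45 called results on the 6 genes, 25 held under every alternative run and 20 were lost in at least 1. Of 40 that were not called, 34 were never called and 6 were called in at least 1. None changed sign while called. The counts of genes called against untreated in cisplatin and 5-FU stayed within 1.5 times. In cytarabine the count of 4 became 2 with arrays scaled to the same spread, 2 with only the drugs compared, and 1 to 4 when 1 replicate was left out. In cytochalasin D the count of 2 became 1 to 2 with 1 replicate left out. In paclitaxel the count of 1 became 2 with no channel term, 0 with every array as its own observation, and 0 to 1 with 1 replicate left out. The count of 31 differences between drugs lay between 23, with only the drugs compared, and 32. With the replicate block it was 29: the NR4A1 differences of cisplatin from paclitaxel and cytochalasin D passed no longer (adjusted p = 0.059 and 0.0577), and no other call on the 6 genes changed. The correlation of replicate differences between drugs was -0.061 to 0.090. Such small values cannot settle whether replicates of 1 number shared a batch or untreated RNA, which the labels do not state. The cause of the changes in calls was not tested.

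Counts over all features moved more. For cytarabine they were 1182 in the main fit, 1900 with no channel term, 765 with every array as its own observation and 711 with arrays scaled. For paclitaxel they were 444, against 763 with no channel term, 233 with every array on its own and 222 over features measured on all 12 arrays. For cisplatin they were 998, against 558 with every array on its own and 612 over features on all 12 arrays, and for cytochalasin D 648, against 325, 355 and, with only the drugs compared, 380. For 5-FU they were 599, against 1258 with every array on its own and 990 with 1 replicate required. With 1 replicate left out, the lowest counts were 596 for cytarabine, 132 for paclitaxel, 460 for cisplatin and 202 for cytochalasin D. Between drugs, cisplatin over cytarabine gave 1462 features, against 972 with arrays scaled, 770 on all 12 arrays and 612 with only the drugs compared. Cisplatin over cytochalasin D gave 538, against 182 and 265, and over paclitaxel 400, against 158 and 151 and, with every array on its own, 266. 5-FU over cytarabine gave 717, against 397 with only the drugs compared. Cytarabine over cytochalasin D gave 211, against 87 with every array on its own, 43 with arrays scaled, 128 on all 12 arrays, 97 with the replicate block and 0 with only the drugs compared. Paclitaxel over cytochalasin D gave 14, against 8 with the block and 0 with only the drugs compared.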
